A study of Mus musculus with 7 samples.

Results

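Ctps encodes CTP synthase, and it was examined here with 9 other genes whose enzymes make the pyrimidine nucleotides UTP and CTP. The 10 genes were found by their names among the 22880 genes of the deposited table, and all 10 passed the filter on low values. The set was chosen by the measured difference in FPKM of Ctps between genotypes in these same samples, so values, differences and standard errors of the 10 genes are given below as a description and without p-values. Optic nerves were taken at postnatal day 14 from 4 control mice (CT) and 3 conditional mutant mice (cMU), all on a C57Bl/6 background. Every mouse is given as homozygous for the floxed Fasn allele (FASN lox/lox), and the mutant mice also as carrying Cre driven from Olig2 (olig2cre FASN lox/lox). The study's methods, however, name both Fasn lox/lox and Fasn lox/wt mice as controls for its developmental work. Both nerves of a mouse made 1 sample, and nothing in the labels gives the sex of the mice. Olig2 is active in oligodendrocytes (OLs) and their progenitors (OPCs), and the control mice had no Cre, so an effect of Cre itself cannot be told apart from the loss of Fasn. Fasn, the targeted gene, had 169 to 228 FPKM (a read level scaled to gene length and library size) in CT and 49.0 to 69.3 FPKM in cMU nerves.

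Cells obtain pyrimidine nucleotides in 2 ways. In the de novo route, the large enzyme CAD carries out the first steps from glutamine and aspartate, DHODH oxidizes dihydroorotate at the inner mitochondrial membrane, and UMPS makes UMP. In the salvage route, UCK1 and UCK2 phosphorylate uridine and cytidine taken up or set free by RNA turnover. The kinase CMPK1 then makes the diphosphates, the NME kinases make the triphosphates, and CTP synthase (CTPS and CTPS2) converts UTP to CTP with glutamine as the nitrogen donor. CTP is used for RNA and also for the activated intermediates of membrane phospholipids, while UDP-bound sugars are used for galactolipids, both of which are lipids of myelin.

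The 10 genes include pairs of paralogs, and a reader of these values needs to know which reads can be assigned to which gene. For this reason the first 60 coding bases of the CTP synthase pair and of the NME pair are shown, read from GENCODE transcripts on GRCm38, with the bases that differ between the paralogs in capitals. The stretch of Ctps lies in exon 2 at chr4:120567356-120567415 on the minus strand, and that of Ctps2 in exon 2 at chrX:162903473-162903532 on the plus strand.
Ctps: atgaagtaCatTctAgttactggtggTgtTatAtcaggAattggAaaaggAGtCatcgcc
Ctps2: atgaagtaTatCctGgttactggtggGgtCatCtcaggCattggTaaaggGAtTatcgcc
The stretch of Nme1 lies in exon 2 at chr11:93965874-93965933 and that of Nme2 in exon 2 at chr11:93955561-93955620, both on the minus strand.
Nme1: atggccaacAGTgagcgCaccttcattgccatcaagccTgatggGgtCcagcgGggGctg
Nme2: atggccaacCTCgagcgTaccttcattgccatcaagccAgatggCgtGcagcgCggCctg
There were 11 differing bases in the first pair and 9 in the second. Over the whole aligned coding sequence 69.9% of the bases were the same in Ctps and Ctps2, 74.1% in Uck1 and Uck2, and 80.3% in Nme1 and Nme2. The longest identical coding run was 20 bases for the CTP synthases, 34 for the uridine-cytidine kinases and 29 for the NME kinases. These runs are short beside the reads of 125 bases, and no stretch of 125 bases was common to both genes of any pair.

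A stretch of read length can still belong to several annotated genes. Every window of 125 bases in the longest coding transcript of each gene was therefore looked for, on the same strand, in the annotated transcripts of all other genes. For Ctps, Ctps2, Cad, Dhodh, Umps, Uck2 and Cmpk1 no window was found elsewhere. In Uck1, 7.66% of the windows also lay in the processed pseudogene Gm4482. The NME genes stood out for another reason. The gene Gm20390, annotated on the same strand at chr11:93949819-93968293, joins exons of Nme1 to exons of Nme2 in 1 transcript of 8 exons. The joint is shown here since only reads that cross it tell this transcript from its neighbours, with the end of exon 4 on the Nme1 side (chr11:93960668-93960697) in lower case and the start of exon 5 on the Nme2 side (chr11:93955595-93955624) in capitals.
Gm20390: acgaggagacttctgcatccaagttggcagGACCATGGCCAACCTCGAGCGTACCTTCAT
Of the windows of Gm20390, 86.3% were found in transcripts of other genes, 34.1% in that of Nme1 and 51.9% in that of Nme2. Conversely, Gm20390 held 50.7% of the windows of Nme2 and 9.68% of those of Nme1. The split of reads among these 3 genes was thus estimated by the quantifier RSEM, and the single levels of Nme1 and Nme2 are less certain than those of the other genes.

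Each library held between 27452408 and 43460661 reads assigned to genes, with 31313205 to 43460661 in CT and 27452408 to 35744401 in cMU samples. Among the 10 genes, the lowest number of reads in a sample was 254 (Dhodh) and the highest was 5520 (Ctps). The labels give no batch. Differences between genotypes were taken on the scale of log2(FPKM + 0.5), as cMU minus CT, from 1 linear model of 13866 genes fitted with limma-trend, and errors of differences are standard errors (SE). A value below 0 is a lower level in cMU nerves, and over all genes tested the median difference was 0.05.

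Ctps (ENSMUSG00000028633, chr4:120539868-120570276, minus strand) had 43.2, 52.0, 43.7 and 40.2 FPKM in CT samples 1 to 4. In cMU samples 1 to 3 it had 26.3, 25.4 and 28.7 FPKM. The highest mutant sample lay below the lowest control sample, and control sample 2 was the highest of all. The mean was 44.8 ± 5.04 FPKM (SD, n = 4) in CT and 26.8 ± 1.73 FPKM (SD, n = 3) in cMU, which is 59.9% of the mean in control nerves. The difference was -0.72 on the log2 scale (SE 0.0914, 95% interval -0.93 to -0.52). This difference is the one for which the gene was picked.

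Ctps2 (ENSMUSG00000031360, chrX:162901238-163032508, plus strand), the second CTP synthase gene, was present at a much lower level. Its FPKM was 7.47, 6.70, 7.43 and 7.63 in CT samples and 9.37, 8.24 and 8.96 in cMU samples. Here every mutant sample lay above every control sample, in the direction opposite to that of Ctps. The difference was 0.26 (SE 0.0830, 95% interval 0.07 to 0.45), with 121.2% of the control mean in cMU nerves. The gene S100g lies within Ctps2 on the other strand, but its FPKM was at most 0.152 in any sample.

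The sum of both CTP synthase genes was 47.8 to 58.7 FPKM in CT and 33.6 to 37.7 FPKM in cMU nerves. Ctps made up 85.8% ± 1.93 (SD, n = 4) of this sum in CT and 75.2% ± 1.28 (SD, n = 3) in cMU samples. The shares ran from 84.0% to 88.6% and from 73.8% to 76.2% and did not overlap. The higher Ctps2 offset little of the lower Ctps, and the summed level of the cMU samples stood at 68.5% of the control mean.

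The 3 de novo enzymes that lead to UMP were expressed at low levels, and for each of them the genotypes overlapped. Cad (ENSMUSG00000013629, chr5:31054811-31078479, plus strand) had 3.53, 3.10, 3.96 and 4.17 FPKM in CT and 3.80, 3.03 and 4.00 FPKM in cMU samples. The groups overlapped, and sample 2 was the lowest of either genotype, in cMU just below the control range. The difference of Cad was -0.03 (SE 0.130, 95% interval -0.32 to 0.27), and its sign turned with the fit, to 0.03 when sample numbers were blocked. Dhodh (ENSMUSG00000031730, chr8:109591343-109608673, minus strand) ran from 6.57 to 7.24 FPKM in CT and from 6.22 to 7.25 FPKM in cMU nerves. Its difference of -0.05 (SE 0.0839, 95% interval -0.24 to 0.14) was also smaller than its error. Umps (ENSMUSG00000022814, chr16:33954782-33967038, minus strand) had 2.75, 2.58, 2.94 and 3.12 FPKM in CT samples and 3.65, 3.16 and 3.09 FPKM in cMU samples. The groups touched, with mutant sample 3 just below control sample 4. The difference was 0.18 (SE 0.106, 95% interval -0.06 to 0.42), and it was above 0 in each of the 15 alternative fits. The intervals of all 3 genes span 0 and leave room for changes, in Umps mostly towards higher levels, so equal levels are not shown.

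**Figure D1:**
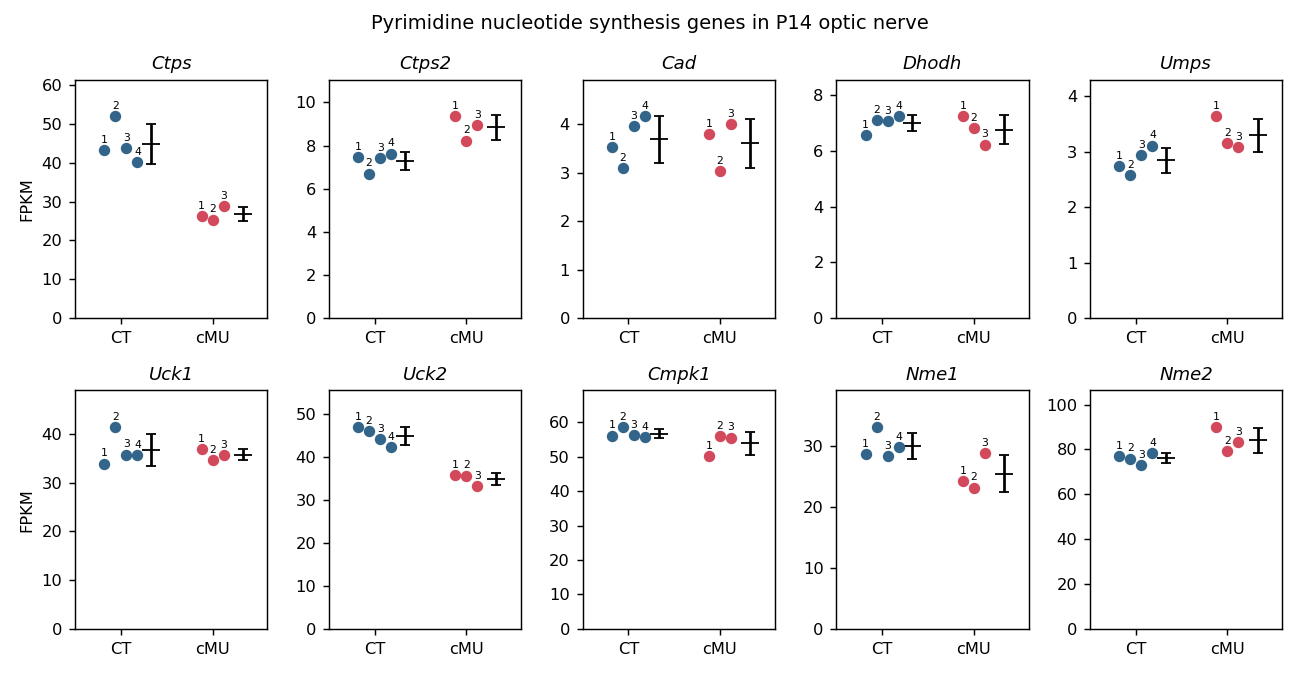
FPKM of the 10 genes in each P14 optic nerve sample, with 1 panel per gene and axes that start at 0. Points are single mice numbered as in the labels (blue CT, n = 4, and red cMU, n = 3), and the black mark beside them is the mean with its SD. All mutant samples lie below the controls for Ctps and Uck2 and above them for Ctps2 and Nme2, and the groups overlap in the other 6 genes.

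Of the uridine-cytidine kinases, Uck2 was lower in cMU nerves while Uck1 overlapped between genotypes. Uck2 (ENSMUSG00000026558, chr1:167222883-167285320, minus strand) had 47.0, 46.01, 44.3 and 42.4 FPKM in CT and 35.8, 35.7 and 33.3 FPKM in cMU samples. The groups were apart, and both were tight. The difference was -0.36 (SE 0.0614, 95% interval -0.50 to -0.22), with 77.8% of the control mean in cMU nerves. Uck1 (ENSMUSG00000002550, chr2:32255002-32260159, minus strand) had 33.9, 41.4, 35.7 and 35.6 FPKM in CT and 36.9, 34.6 and 35.6 FPKM in cMU samples. The mutant samples fell within the control range, and the difference was -0.03 (SE 0.0762, 95% interval -0.21 to 0.14). The end of Uck1 overlaps Pomt1 on the other strand by 4 bases. Uck2 gave 55.1% ± 2.30 (SD, n = 4) of the summed FPKM of both kinases in CT and 49.4% ± 1.23 (SD, n = 3) in cMU samples, and these shares did not overlap either.

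Cmpk1 (ENSMUSG00000028719, chr4:114959336-114987241, minus strand), the UMP-CMP kinase common to both routes, had 56.2, 58.7, 56.3 and 55.8 FPKM in CT samples. In cMU samples it had 50.1, 56.1 and 55.6 FPKM, where only sample 1 stood clear of the controls by more than 1 FPKM. The difference was -0.07 (SE 0.0601, 95% interval -0.21 to 0.06), and without cMU sample 1 it was -0.02.

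The estimated levels of the NME kinases differed in opposite directions, and both estimates rest on how RSEM split the shared reads. Nme1 (ENSMUSG00000037601, chr11:93956979-93968521, minus strand) had 28.6, 33.1, 28.4 and 29.8 FPKM in CT and 24.2, 23.1 and 28.8 FPKM in cMU samples. Mutant sample 3 lay within the control range while the other two lay below it, and the difference was -0.24 (SE 0.0906, 95% interval -0.44 to -0.03). Nme2 (ENSMUSG00000020857, chr11:93949814-93956259, minus strand) had the highest FPKM of the 10 genes, at 76.8, 75.9, 73.1 and 78.4 in CT and 90.1, 79.1 and 83.2 in cMU samples. The groups did not overlap, although mutant sample 2 came within 1 FPKM of control sample 4. The difference was 0.14 (SE 0.0617, 95% interval 0.003 to 0.28) and fell to 0.07 on the deposited normalized counts. The joined gene Gm20390 varied more than either, from 34.0 to 50.3 FPKM in CT and from 29.96 to 43.5 FPKM in cMU samples, with a difference of -0.21 (SE 0.166).

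The reads of Nme1, Nme2 and Gm20390 were therefore also added up, a sum that does not depend on how they were split. It came to 147.8 ± 6.82 CPM (reads scaled to library size, SD, n = 4) in CT and 143.0 ± 12.2 (SD, n = 3) in cMU nerves, with ranges of 140.9 to 154.5 and 130.6 to 155.1 that overlapped. Of this sum Nme2 took 41.8% to 47.9% in CT and 50.6% to 52.9% in cMU samples. Nme1 took 25.5% to 29.5% in CT and 21.5% to 27.6% in cMU samples. The estimated shares of Nme2 did not overlap between genotypes and those of Nme1 did, while the means of the summed reads differed by less than their SD.

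**Figure D2:**
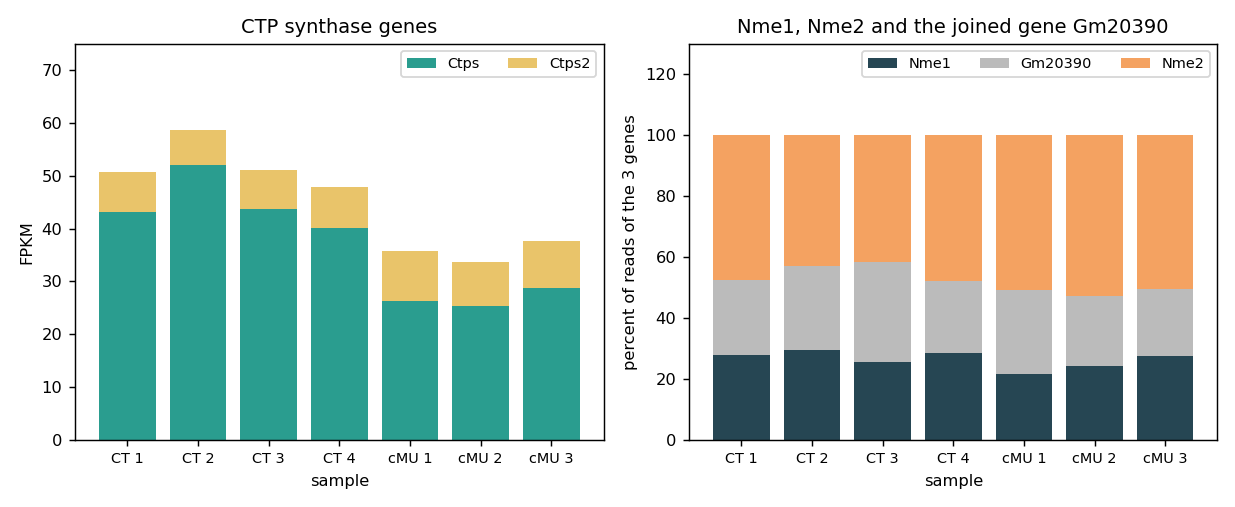
Left, FPKM of Ctps and Ctps2 stacked for each of the 7 samples. Right, the share of reads of Nme1, Gm20390 and Nme2 in their sum, in percent, for each sample. The stacked CTP synthase level is at most 37.7 FPKM in cMU and at least 47.8 FPKM in CT samples, and Nme2 takes over 50% of the reads in each cMU sample and under 48% in each CT sample.

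Ranked by their mean FPKM in CT nerves, the genes ran from Nme2 at 76.1 through Cmpk1 (56.7), Uck2 (44.9), Ctps (44.8), Uck1 (36.7), Nme1 (29.96), Ctps2 (7.31), Dhodh (6.999) and Cad (3.69) to Umps at 2.85. FPKM is a level per length, and the length used is the gene width of the deposited table. For Ctps this width was 2705 bases, the full longest coding transcript, and for Cad it was 7106 of 7137 bases. For Uck2 it was 1459 of 4731 bases and for Cmpk1 1361 of 3170 bases. The order of the genes and the shares within pairs of paralogs therefore depend on these widths. Among neighbours in this order, the control samples of Uck2 and Ctps, Ctps and Uck1, Ctps2 and Dhodh, and Cad and Umps overlapped. By FPKM on these widths, the salvage and kinase genes stood above the de novo enzymes by several times in both genotypes. In cMU nerves the mean of Ctps lay below that of Uck1 as well, its samples overlapped those of Nme1, and Ctps2 and Dhodh no longer overlapped.

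Of the 10 genes, 2 had an adjusted p under 0.05 in limma-trend, beside 2.62% of all genes tested. Without CT sample 1 or CT sample 2 this held for 1 gene, and without CT sample 3 or cMU sample 3 for 0, where 6 of all genes passed in place of 363. Their groups did not overlap with lower values in cMU in 2 genes, beside 8.26% of all genes, and with higher values in 2 genes, beside 12.9% (21.1% in either direction). As Ctps was chosen for its difference in this contrast, nothing is read from these counts. The median difference of the 10 genes was -0.04, beside 0.05 over all genes tested. With any 1 sample left out, the difference of Ctps stayed between -0.77 and -0.65, that of Uck2 between -0.39 and -0.32, and that of Ctps2 between 0.22 and 0.31.

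**Figure D3:**
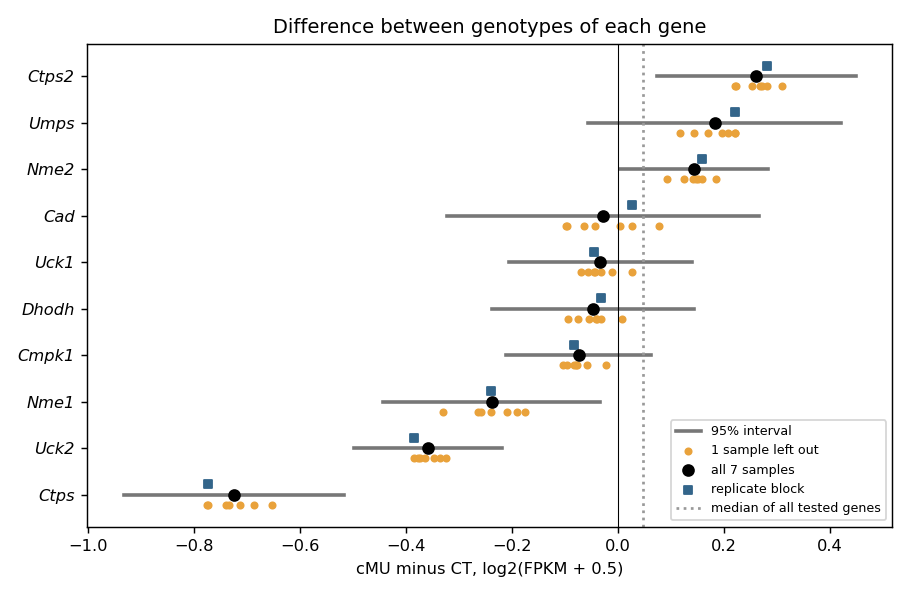
Difference between genotypes on the log2(FPKM + 0.5) scale for each of the 10 genes, where a value below 0 is lower in cMU. Black points with grey bars are the values of all 7 samples with their 95% intervals, orange points leave out 1 sample each, blue squares use the replicate block, and the dotted line is the median of all genes tested (0.05). Ctps lies at -0.72, Uck2 at -0.36 and Ctps2 at 0.26, and the intervals of 5 genes span 0.

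The optic nerve holds OLs beside other cells, and in these bulk samples fewer cells of a type and less RNA per cell cannot be told apart. Markers of newly formed OLs had a summed level of 1349 to 1541 FPKM in CT and 918 to 1169 FPKM in cMU nerves. Of these 8 genes, 3 (Gpr17, Rras2 and Tmem2) fell past the adjusted threshold of limma-trend and none rose, beside 1.36% of all genes that fell. Of 11 markers of myelin and mature OLs, 2 fell past it (Mag and Cnp) and none rose past it, with sums of 38030 to 40310 FPKM in CT and 28310 to 36910 FPKM in cMU. At an unadjusted p under 0.05 in limma-trend, 3 of these 11 were lower in cMU and 1 was higher (Ugt8a, 773.9 to 899.6 FPKM in CT and 905.6 to 1222 FPKM in cMU). Of 7 OPC markers, 2 fell past the adjusted threshold (Cspg4 and Vcan), with sums of 212.6 to 242.8 FPKM in CT and 171.6 to 212.0 FPKM in cMU. Of 8 astrocyte markers, 4 rose (Slc1a2, Aldh1l1, Aldoc and Gja1), beside 1.26% of all genes that rose, and their sum went from between 3235 and 3645 FPKM to between 4066 and 5012 FPKM. No gene passed among 7 microglial (3 at an unadjusted p under 0.05), 6 endothelial (5), 6 meningeal fibroblast (3), 9 proliferation (1) and 3 tested retinal neuron markers (1), nor with the quasi-likelihood test of edgeR (3, 4, 3, 1 and 1 at an unadjusted p under 0.05). Over all genes, the share at an unadjusted p under 0.05 in either direction was 24.4% in limma-trend and 25.6% in edgeR. The marker genes in parentheses were named after their values were seen. When sample numbers were blocked, 269 of the 13866 genes fell and 890 rose, against 188 and 175 without the block. In that fit 6 newly formed OL, 3 OPC and none of the myelin and mature OL markers fell. The markers that rose in it were 5 astrocyte, 4 meningeal, 2 endothelial, 1 microglial and 1 retinal neuron markers. With edgeR, 3 newly formed OL, 4 OPC and 1 myelin and mature OL markers fell and 3 astrocyte markers rose. Among all genes, 238 fell and 162 rose with edgeR. No myelin and mature OL marker passed on the deposited normalized counts or with no filter. The same held without CT sample 1, CT sample 4 or cMU sample 1. With no filter (95 of all genes passed) only 1 astrocyte marker passed. Without CT sample 1 (62 of all genes) only 1 OPC marker passed. Without CT sample 4 (119) it was 2 newly formed OL, 3 astrocyte and 0 OPC markers. Without cMU sample 1 (191) it was 1 newly formed OL, 1 OPC, 5 astrocyte and 1 microglial markers. Without CT sample 2, CT sample 3 or cMU sample 3 no marker of any of these lists passed. The summed level of the microglial markers was 232.7 to 278.3 FPKM in CT and 263.8 to 305.8 in cMU, of the endothelial ones 85.9 to 98.4 and 110.2 to 122.3, and of the meningeal ones 1799 to 2545 and 2385 to 4570. That of the proliferation markers was 95.3 to 118.3 FPKM in CT and 96.8 to 105.6 in cMU nerves, and that of the retinal neuron markers 26.6 to 31.0 and 33.6 to 41.5. The part of these shifts in the differences of Ctps and the other genes was not tested.

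Ctps and Uck2 were also set against the OL markers of the same sample. Per 1000 FPKM of newly formed OL markers, Ctps stood at 30.8, 33.7, 30.5 and 29.8 FPKM in CT and at 28.7, 21.7 and 25.6 FPKM in cMU samples. Per 1000 FPKM of myelin and mature OL markers it stood at 1.06 to 1.29 in CT and 0.688 to 0.967 in cMU samples. On both bases the mutant samples lay below all control samples, at 81.1% and 74.8% of the control mean. For Uck2 the groups overlapped on both bases, with 29.9 to 33.5 in CT and 29.6 to 39.0 in cMU per 1000 FPKM of newly formed OL markers. Against the myelin and mature OL markers Uck2 stood at 1.11 to 1.23 in CT and 0.966 to 1.27 in cMU.

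The genes with a pattern most like that of Ctps over the 7 samples were found by the root mean square difference of log2(FPKM + 0.5), with each gene centred on its own mean. The closest were Birc2 (0.0930), a ubiquitin ligase of the inhibitor of apoptosis family, and Ggct (0.0949), an enzyme of glutathione breakdown. They were followed by Fam163a (0.0997), Gpr176 (0.101), an orphan G protein-coupled receptor, and Ccdc74a (0.112), against a median distance of 0.420 over the 13856 genes compared. Birc2 had 37.6 to 43.3 FPKM in CT and 23.2 to 24.2 FPKM in cMU nerves, levels close to those of Ctps. Ggct had 5.52 to 7.36 FPKM in CT and 3.91 to 4.04 FPKM in cMU, and Fam163a, Gpr176 and Ccdc74a were lower in every mutant sample as well. Such closeness is mostly set by the difference between genotypes and says nothing of shared control.

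Beyond the 10 genes, 45 others of pyrimidine salvage, interconversion, breakdown and transport were compared, of which 38 passed the filter on low values. None passed the adjusted threshold of limma-trend or the quasi-likelihood test of edgeR, and 9 had an unadjusted p under 0.05 with limma-trend (beside 24.4% of all genes), 7 of them higher and 2 lower in cMU. The edgeR test gave 7 at an unadjusted p under 0.05, beside 25.6% of all genes. The median difference was 0.01, below the median of all genes. The most abundant of them were Rrm2b, a ribonucleotide reductase subunit (49.7 ± 2.91 FPKM in CT, SD, n = 4, and 47.9 ± 3.40 in cMU, SD, n = 3), the transporter Slc29a3 (37.8 ± 2.41 and 34.8 ± 2.24), the mitochondrial pyrimidine nucleotide carrier Slc25a36 (34.3 ± 1.41 and 34.9 ± 2.49) and Uckl1, related to the uridine-cytidine kinases (31.6 ± 1.19 and 28.2 ± 1.08). When sample numbers were blocked, a fit to which the unpaired CT sample 4 adds nothing, Nt5e passed (difference 0.61, adjusted p = 0.0274 from limma-trend, against 0.0811 without the block). Nt5e encodes the ecto-5'-nucleotidase CD73, which frees nucleosides outside cells, and had 4.82 to 7.36 FPKM in CT and 8.18 to 12.03 FPKM in cMU nerves. It was named after its values were seen.

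Enzymes that use CTP for lipids and sialic acid, or that make UDP-bound sugars, formed a list of 20 genes, all tested. None passed the adjusted threshold of limma-trend or edgeR, with 8 at an unadjusted p under 0.05 in limma-trend (6 higher and 2 lower in cMU, beside 24.4% of all genes) and 10 in edgeR (beside 25.6%). Pcyt2, the CTP-dependent step to phosphatidylethanolamine, had 311.0 to 371.6 FPKM in CT and 301.5 to 351.4 FPKM in cMU nerves, with a difference of -0.07 (SE 0.0816, adjusted p = 0.653 from limma-trend). Its counterpart for phosphatidylcholine, Pcyt1a, had 53.5 ± 3.14 FPKM (SD, n = 4) and 48.2 ± 1.92 FPKM (SD, n = 3), a difference of -0.15 (adjusted p = 0.197, limma-trend). Cds2, which makes CDP-diacylglycerol, had 68.1 to 80.2 FPKM in CT and 89.9 to 96.4 FPKM in cMU nerves, with a difference of 0.27 (SE 0.0711, adjusted p = 0.0756 from limma-trend). Chpt1, the choline phosphotransferase that takes up CDP-choline, had 74.8 ± 3.93 FPKM (SD, n = 4) and 88.2 ± 9.68 FPKM (SD, n = 3), with a difference of 0.23 (adjusted p = 0.138, limma-trend). The lowest adjusted p of the list was 0.0545 for Galt (limma-trend), an enzyme of galactose use, with 3.83 to 5.01 FPKM in CT and 5.70 to 6.96 FPKM in cMU nerves. Galt passed (adjusted p = 0.0395, limma-trend) when cMU sample 2 was left out, and it too was named after its values were seen.

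The parallel pathway of purine nucleotides was represented by 18 genes, all tested. None passed the adjusted threshold with limma-trend or edgeR, and 5 (limma-trend, beside 24.4% of all genes) and 4 (edgeR, beside 25.6%) had an unadjusted p under 0.05. The median difference was -0.02. Paics, of de novo purine synthesis, was the most abundant, with 91.1 ± 3.73 FPKM (SD, n = 4) in CT and 100.7 ± 1.73 FPKM (SD, n = 3) in cMU (difference 0.14, adjusted p = 0.158 from limma-trend). Impdh2, which commits IMP to GTP, had 60.2 ± 1.99 FPKM (SD, n = 4) and 60.1 ± 2.68 FPKM (SD, n = 3), a difference of -0.001 (SE 0.0575). Adssl1, of AMP synthesis, stood at 40.9 ± 3.08 FPKM in CT (SD, n = 4) and 35.3 ± 3.46 FPKM in cMU (SD, n = 3), with an adjusted p of 0.165 (limma-trend). For Prpsap1, associated with PRPP synthetase, the means were 35.7 ± 2.38 and 33.5 ± 3.19 FPKM (adjusted p = 0.522, limma-trend).

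**Figure D4:**
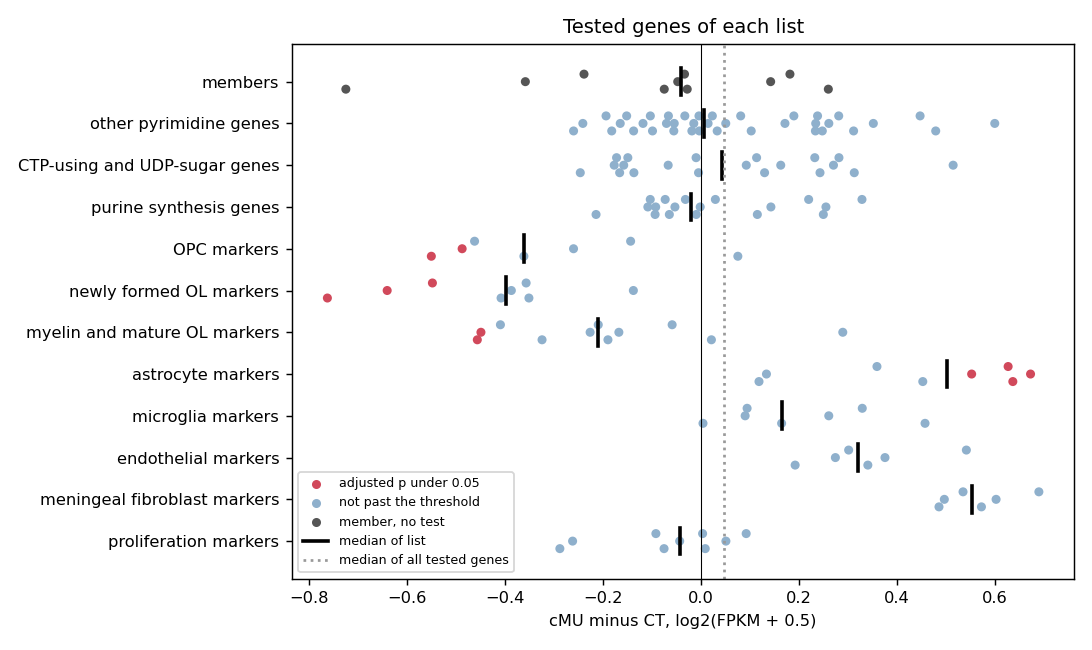
Differences between genotypes, cMU minus CT on the log2(FPKM + 0.5) scale, of the tested genes of each list except the retinal neuron markers. There is 1 point per gene, a black bar at the median of the list and a dotted line at the median of all genes tested (0.05). Red points passed the adjusted threshold of limma-trend, light points did not, and dark points are the 10 genes, which are not marked by a test result. The 3 nucleotide lists hold no red point, whereas OL and OPC markers hold red points below 0 and astrocyte markers hold 4 above 0.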

How the data were processed

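RNA-seq of P14 optic nerves was used (4 CT and 3 cMU samples, grouped by their titles). Per the submitters' processing notes and the study's methods, reads were aligned to GRCm38 with STAR 2.5.1b and quantified with RSEM 1.2.22. The authors deposited FPKM and a normalized count for each gene, the latter a signal made by dividing the RSEM estimate by a size factor per sample. The deposited table also gives a gene width and GC fraction per gene, and the authors' fold changes and p-values, which were not used. FPKM recomputed from normalized counts and widths differed by at most 0.177%.

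The smallest normalized count of a sample is 0.01 read, which gave back the estimated counts. Of values from 0.5 to 10 reads, 73.7% to 78.7% were whole within 0.02 reads. Whether counting used the strand is not given in the sources used here.

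limma 3.58.1 (trend) was run on log2(FPKM + 0.5) of the 13866 genes that reached 0.5 FPKM in 3 or more samples, with a single genotype term, and p-values were adjusted over all of them by Benjamini and Hochberg. The quasi-likelihood test of edgeR 4.0.16 on rounded estimated counts was added after the data were seen. Deviations from the group mean had correlations across genes of 0.168 to 0.409 in the 3 same-numbered pairs. Between other samples these were -0.353 to 0.205. The ranges overlapped, as cMU sample 1 stood at 0.205 with CT sample 4 and at 0.168 with CT sample 1. The number was taken to pair samples in a block fit, to which the unpaired CT sample 4 adds nothing. The labels do not say what the number stands for. P-values set the difference between genotypes against the spread between samples, each from 1 mouse, and that spread also holds counting error.

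The 10 genes and all lists were chosen with earlier results of these data known. Named are Fasn, the 10 genes, list genes past the threshold, Ugt8a, up to 4 of highest mean FPKM per nucleotide list, the 5 genes nearest to Ctps, and genes that overlap a member. The lists covered other pyrimidine genes, CTP-using and UDP-sugar genes, purine synthesis and markers of OPCs, newly formed OLs, myelin and mature OLs, astrocytes, microglia, endothelium, meningeal fibroblasts, proliferation and retinal neurons. With 4 against 3 samples an exact two-sided permutation test of a single value cannot go below 0.0571.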

Additional observations from a re-analysis of the deposited data

Results flagged for a closer look

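The control values of 46 genes (Fasn, the 10 genes, Gm20390 and the other genes named with values or calls, apart from S100g and Ugt8a) and of 12 sums, shares and ratios of them were examined, and other list genes were not. In 5 of these 58 series, 1 control sample was set apart from the other 3 by more than Dixon's 95% limit, and chance gives about 1 in 20. For Cds2, CT sample 2 was the lowest at 68.1 FPKM (gap over range 0.867). For Paics, CT sample 1 was the highest at 96.7 FPKM (gap over range 0.866). For Adssl1, CT sample 4 was the highest at 45.5 FPKM (gap over range 0.865). For Slc29a1, a nucleoside transporter, CT sample 1 was the highest at 16.1 FPKM (gap over range 0.893). For Cnp, a myelin marker, CT sample 1 was the lowest at 2580 FPKM (gap over range 0.842). None of the 10 genes was set apart in this way in the control samples. Groups of 3 were not examined.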

How the results depend on the processing

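Ctps was lower in cMU in all 15 alternatives, between -0.81 and -0.65 on the log2 scale. Over all genes, 363 passed the adjusted threshold, but 95 with no filter, 1159 with the replicate block and 6 to 909 with each sample left out (6 without CT sample 3 or cMU sample 3, 909 without cMU sample 2). Among other pyrimidine genes it was 0, but 1 with the replicate block (Nt5e) and 0 to 3 with each sample left out (Dpyd, Upb1 and Slc29a1, all higher and named after their values were seen, without cMU sample 2). For CTP-using and UDP-sugar genes and for purine synthesis genes it was 0 to 1 with each sample left out (Galt and Hprt, both higher, without cMU sample 2), and 0 in the other alternatives. The replicate block changed no other call on these 3 lists. On the deposited normalized counts Uck2 was at -0.44, Cmpk1 at -0.15 and Nme2 at 0.07, and the median of all genes was -0.03 in place of 0.05. The sign turned in 4 alternatives for Cad and in 1 each for Dhodh and Uck1. Depth was lowest for Dhodh, with 254 to 457 reads per sample, and counting error was not separated from the spread between mice.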
